A study of Mus musculus with 12 samples.

Results

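Interleukin 6, leukemia inhibitory factor, oncostatin M and interleukin 10, with the receptor chains of interleukin 6 and interleukin 10 and the transcription factor STAT3, were followed by their transcripts in mouse macrophages exposed to the lipopeptide MALP-2. The set was taken by name and holds 9 of the 18193 genes with a probeset of their own on the array (Il6, Lif, Osm, Il10, Il6ra, Il6st, Il10ra, Il10rb and Stat3), read by 20 probesets. Of a gene's probesets, the one with the highest mean over 11 of the 12 arrays stands for it, the library labelled double knockout at 0 h being left out of that choice. The cells were peritoneal macrophages of thioglycollate-injected mice and came in 3 genotypes: IRAK2 KO, IRAK1/IRAK2 KO (the double knockout below) and wild type. Each genotype was sampled unstimulated (0 h) and after 2, 4 and 8 h of MALP-2 at 100 ng/ml, with 1 Affymetrix array per genotype and time. The labels name no strain, allele design, age or number of mice, and all groups share the thioglycollate recruitment. MALP-2 is a mycoplasma lipopeptide recognised by TLR2 together with TLR6, and IRAK1 and IRAK2 are kinases that carry the signal from the adaptor MyD88 to TRAF6. The comparisons address how far these transcripts depend on IRAK2 and on both kinases.

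IL-6, LIF and oncostatin M are cytokines that signal through receptor complexes sharing the gp130 chain, the product of Il6st. IL-6 first binds its own receptor chain, the product of Il6ra, while IL-10 binds a receptor made of the Il10ra and Il10rb products. All of these receptors activate JAK kinases, which phosphorylate STAT3. In macrophages IL-6 is a late inflammatory product of Toll-like receptor signalling, whereas IL-10 acting through STAT3 restrains the same response.

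RefSeq promoter sequences, 250 bases before and 50 bases from each annotated start, were matched for 5 of the 9 genes in build GRCm38.p6 (Il6, Lif, Il6ra, Il6st and Stat3). The promoters of Il6 (chr5:30012864-30013163, plus strand) and Lif (chr11:4257318-4257617, plus strand) are shown because these are the genes of the set whose transcripts were higher after MALP-2. Capitals mark matches to the NF-kB pattern (GGGA, any base, TTTCC) and the AP-1 pattern TGANTCA, searched on both strands.
Il6: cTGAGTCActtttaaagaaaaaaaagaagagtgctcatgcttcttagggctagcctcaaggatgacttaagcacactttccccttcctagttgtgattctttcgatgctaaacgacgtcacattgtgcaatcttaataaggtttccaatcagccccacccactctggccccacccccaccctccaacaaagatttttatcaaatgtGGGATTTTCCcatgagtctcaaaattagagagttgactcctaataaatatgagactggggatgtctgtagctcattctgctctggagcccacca
Lif: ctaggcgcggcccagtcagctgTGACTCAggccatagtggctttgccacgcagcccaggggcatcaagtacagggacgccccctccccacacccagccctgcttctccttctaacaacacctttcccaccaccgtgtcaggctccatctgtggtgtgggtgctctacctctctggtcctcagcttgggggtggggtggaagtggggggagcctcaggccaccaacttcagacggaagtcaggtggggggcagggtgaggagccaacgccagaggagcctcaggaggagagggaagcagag
The Il6 promoter held the NF-kB pattern at bases -44 to -35 from the start, spelled GGGATTTTCC, and the AP-1 pattern at -249 to -243. The Lif promoter held the AP-1 pattern at -228 to -222 and no match to the NF-kB pattern. Among all 32851 mouse promoters of the same length, 0.411% held this NF-kB pattern and 7.81% this AP-1 pattern. The C/EBP pattern TTNNGNAA, present in 40.7% of all promoters, occurred at -128 to -121 of Il6 and in the Il6ra and Stat3 promoters. None of the 5 promoters held the STAT pattern TTCNNNGAA (8.30% of all promoters) or the cAMP response element TGACGTCA (1.79%). These matches describe letters in the sequence and no binding was measured. Osm and Lif are neighbours on chromosome 11 with no other protein-coding gene between them.

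Values are log2 levels, so a difference of 1 is a 2-fold difference, and levels of different genes cannot be set against each other. The floor used here, the median of all values on 11 arrays, was 3.83, and a difference against a value near it is read as a lower limit. The library labelled double knockout at 0 h stood apart: it correlated with the other arrays at r = 0.764 to 0.804, against at least 0.954 among the other 11, and its values are given without being used in tests. Its level on the Irak1 probeset with the highest mean was 10.84, against 8.11 to 8.59 on the other 11 arrays, which goes against its label. Its Irak2 level was 3.53, against 4.61 to 6.69 on the others, which goes with the label. Its hybridization spike-in probesets had a median of 12.38, against 10.54 to 11.07, so the array was unlike the others more widely. Whether its label is right was not tested. Irak2 read 1.29 lower in IRAK2-knockout than in wild-type cells over 2, 4 and 8 h (difference -1.29, adjusted p = 0.0251), and the double knockout differed from wild type by -1.28 (adjusted p = 0.00101). The 4 Irak1 probesets differed by -1.22, -0.66, -0.25 and -0.24 between the double knockout and wild type, of which the first pair passed the test. The labels do not say whether these probes fall inside the deleted parts of the genes, so they check the labels only in part. The 5′ minus 3′ difference of the actin probesets was -4.68 to -3.87 on the stimulated double-knockout arrays and -3.72 to -3.18 on the wild-type and IRAK2-knockout arrays. For Gapdh it was -5.90 to -4.36 against -3.84 to -3.42. Macrophage markers had a summed level of 14.4 to 14.7 on all 11 arrays, all 8 of the list being at or above the floor on average. All marker sums here and below add unlogged levels, so the brightest genes of a list weigh most. These are Lyz2 and Csf1r for macrophages, Siglecf for mast cells and eosinophils, and Ighm for B cells. For neutrophils it is S100a8, and for mesothelial and stromal cells Col1a1. Of the 8 macrophage markers, Cd14 (-1.85), Itgam (-0.78), Adgre1 (-0.69) and Fcgr1 (-0.56) were called lower in the double knockout than in wild type, and Mertk (0.54) higher. Of all tested genes 17.3% were called lower there and 23.7% higher. In the IRAK2 knockout limma called 0 of the 8 macrophage markers, with 1 at an unadjusted p under 0.05 (13.6% of all genes). In the response to MALP-2 shared by wild type and IRAK2 knockout, Cd14 and Adgre1 were called higher (18.9% of all genes), and Cd68, Fcgr1 and Mertk lower (28.2%). Cd14 read 7.48 at 0 h and 11.30 at 2 h in wild type. Mast cell and eosinophil markers summed to 7.11 to 7.87 in the IRAK2 knockout, 8.08 to 8.38 in the stimulated double knockout and 7.06 to 7.96 in wild type, with Epx, Fcer1a, Mcpt4 and Prg2 under the floor throughout. B cell markers summed to 6.77 to 7.11, 7.41 to 7.97 and 7.35 to 8.35 in the same order of genotypes. Of 4 B cell markers tested, limma called Ighm lower in the IRAK2 knockout than in wild type (-1.35, adjusted p = 0.0366, 0.35% of all genes). In the double knockout it called Cd79a lower (-0.59, adjusted p = 0.00402). Of 3 mast cell and eosinophil markers tested, Cpa3 (1.20) and Siglecf (1.19) were called higher in the double knockout, and 0 were called in the IRAK2 knockout. These 5′ to 3′ differences and markers moved with genotype, and their part in the differences below was not tested.

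Differences between genotypes were tested with limma over the 3 stimulated times, with genotype and time as additive factors, and p-values were adjusted over all 10852 genes tested. Because each genotype and time has 1 array, the error compares a difference with its constancy over the 3 times and not with the spread between mice. In the double knockout, transcripts of Il6, Lif, Osm and Il6ra were lower than in wild type, while Il6st, Il10ra, Il10rb and Stat3 did not pass. That is 4 of the 8 members tested, all lower, where 41.1% of all tested genes were called, 17.3% lower and 23.7% higher. Il10 stayed under the floor and was not tested. In the IRAK2 knockout 0 of 8 members were called, by limma and by its mean-dependent form limma-trend, where 0.765% of all genes were called, 0.35% lower and 0.415% higher. An unadjusted p under 0.05 was given to 3 members there, Il6, Lif and Osm, and to 13.6% of all tested genes. Between the double knockout and the IRAK2 knockout 1 member was called, Il6ra, lower in the double knockout, where 38.8% of all genes were called, 16.7% lower and 22.1% higher. The median difference of the 8 members was -0.19 for the IRAK2 knockout and -0.49 for the double knockout against wild type, beside 0.02 and 0.07 over all tested genes. These 2 comparisons share the wild-type arrays.

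**Figure D1:**
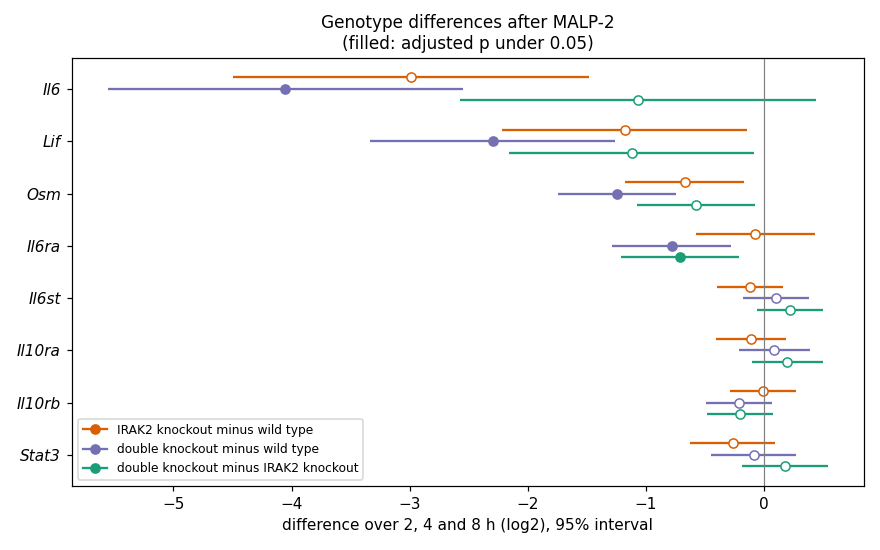
Difference between genotypes over 2, 4 and 8 h of MALP-2 (log2, x axis) for the 8 members tested (y axis). Points are limma estimates, bars their 95% intervals, and filled points passed an adjusted p of 0.05. Il6, Lif, Osm and Il6ra are filled for the double knockout minus wild type, Il6 at -4.05 and Il6ra at -0.78, and no point is filled for the IRAK2 knockout minus wild type.

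Il6 transcripts were strongly induced by MALP-2 in wild-type macrophages, only early and briefly in IRAK2-knockout macrophages, and stayed near or under the floor in double-knockout macrophages. In the IRAK2 knockout the level was 3.42 at 0 h, then 5.79, 4.82 and 3.75 at 2, 4 and 8 h. In the double knockout it was 3.93, 3.60 and 3.63 at those times, and the library labelled double knockout at 0 h read 3.85. In wild type it was 3.47, then 6.36, 7.98 and 8.98. All 3 stimulated wild-type values thus lay above every IRAK2-knockout and double-knockout value, and all stimulated double-knockout values except that at 2 h were under the floor. Of all 10852 tested genes, 6.08% had every stimulated IRAK2-knockout value below every stimulated wild-type value. For the double knockout the share was 17.5%. Ordered by level, wild type at 8, 4 and 2 h came before the IRAK2 knockout at 2 and 4 h, and the remaining arrays lay between 3.42 and 3.93.

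At 2 h Il6 was 1.49-fold lower in the IRAK2 knockout than in wild type, at 4 h 8.95-fold and at 8 h 37.4-fold. The double knockout was 5.40-fold, 20.8-fold and 40.6-fold below wild type at those times. These folds are lower limits where the knockout value is near or under the floor, as in the IRAK2 knockout at 8 h and the double knockout throughout. Over the 3 times the double knockout differed from wild type by -4.05 (SE 0.66, 95% interval -5.56 to -2.55, adjusted p = 0.00175). The IRAK2 knockout differed from wild type by -2.99 (SE 0.66, interval -4.49 to -1.48), which did not pass (adjusted p = 0.101). Without the 2 h arrays this difference was -4.19 and passed (adjusted p = 0.0399), as it did with only these 2 genotypes in the fit (adjusted p = 0.0473). The double knockout differed from the IRAK2 knockout by -1.07 (interval -2.57 to 0.44, adjusted p = 0.234), so the fit did not separate the 2 knockouts.

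The difference of Il6 from wild type widened from 2 to 8 h in both knockouts. In the double knockout Il6 was near or under the floor at all 3 times, so its slope there mainly reflects the wild-type values. A fit of each genotype's difference on log2 time gave -2.33 per doubling of time for the IRAK2 knockout minus wild type (SE 0.16, adjusted p = 0.0276). Il6 was the 1 gene called of 10852 (0.00921% of all genes), 537 genes having an unadjusted p under 0.05. For the double knockout minus wild type the slope was -1.46 (SE 0.16, adjusted p = 0.0448), where 0.138% of all genes were called, 0.111% with a falling and 0.0276% with a rising difference. Neither slope passed when fitted on hours instead of log2 hours (adjusted p = 0.292 and 0.119). In these fits 2 residual degrees of freedom remained, so the result rests on how straight the course of Il6 was over 3 times.

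**Figure D2:**
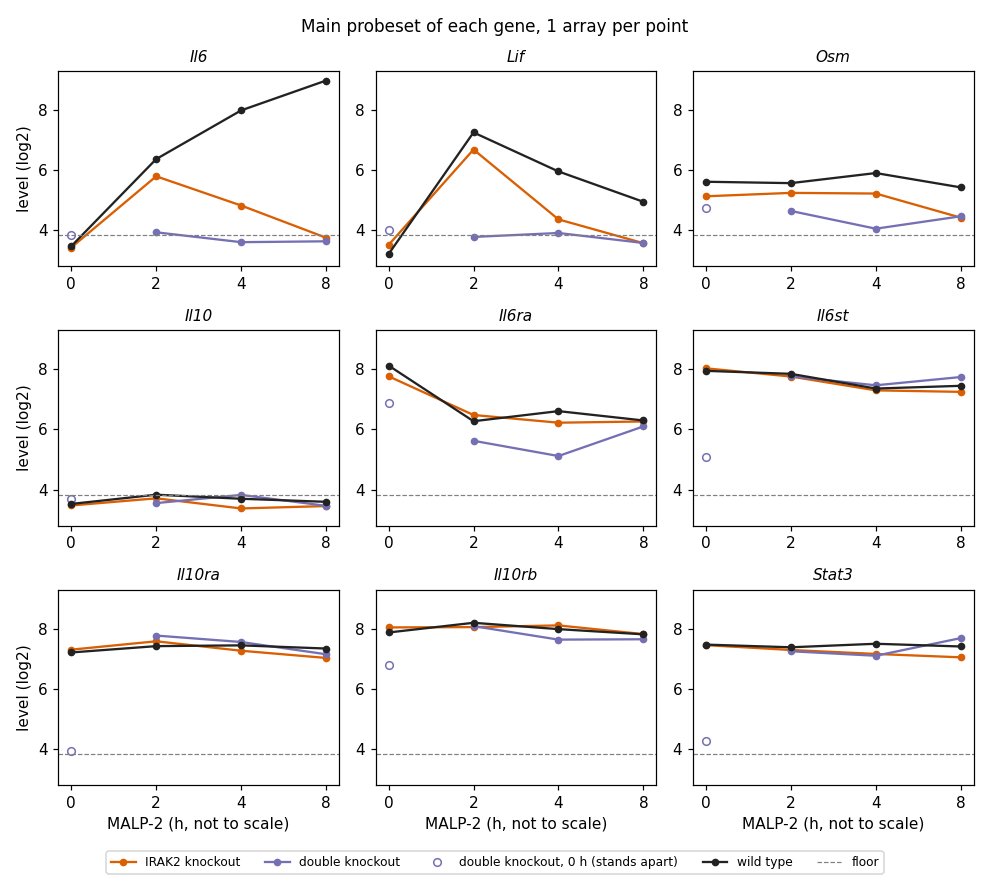
Level of each member (log2, y axis) at 0, 2, 4 and 8 h of MALP-2 (x axis, not to scale), 1 array per point, with the floor as a dashed line and the library labelled double knockout at 0 h as an open circle. Il6 reaches 8.98 at 8 h in wild type while the IRAK2 knockout is at 3.75 and the double knockout at 3.63.

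Lif, which encodes leukemia inhibitory factor, peaked at 2 h in both wild-type and IRAK2-knockout macrophages and showed no such peak in the double knockout. The IRAK2 knockout read 3.51 at 0 h, then 6.68, 4.36 and 3.57. The double knockout read 3.78, 3.91 and 3.57 at 2, 4 and 8 h, and the library labelled double knockout at 0 h read 4.00. Wild type read 3.20, then 7.25, 5.95 and 4.94. At 2 h the double knockout was 11.1-fold lower than wild type and the IRAK2 knockout 1.48-fold lower. At 8 h the double knockout was 2.58-fold and the IRAK2 knockout 2.59-fold lower than wild type. The double knockout was under the floor at 2 h and both knockouts at 8 h, so these folds are lower limits there.

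Over the 3 times Lif in the double knockout differed from wild type by -2.30 (SE 0.46, interval -3.33 to -1.26, adjusted p = 0.00437). The IRAK2 knockout differed by -1.18 (interval -2.22 to -0.14, adjusted p = 0.312). The groups overlapped there, since the IRAK2 knockout at 2 h lay above wild type at 4 and 8 h. With only these 2 genotypes in the fit the difference passed (adjusted p = 0.0140). The double knockout differed from the IRAK2 knockout by -1.12 (adjusted p = 0.0833). In contrast to Il6, the difference between the double knockout and wild type was smaller at later times, with a slope of 1.05 per doubling of time (SE 0.25) that did not pass (adjusted p = 0.161). Lif in the double knockout was near or under the floor at all 3 times, so this slope mainly reflects the falling wild-type values. A second Lif probeset stayed under the floor on all 11 arrays, between 3.01 and 3.36.

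Osm, which encodes oncostatin M, was already at a measurable level without MALP-2. The IRAK2 knockout read 5.13, 5.24, 5.22 and 4.42 at 0, 2, 4 and 8 h. The stimulated double knockout read 4.64, 4.05 and 4.46, and the library labelled double knockout at 0 h read 4.73. Wild type read 5.61, 5.56, 5.90 and 5.42. Every stimulated value of either knockout lay below every wild-type value, and the unstimulated IRAK2-knockout value lay below the unstimulated wild-type value too. Such a gap between stimulated arrays, wholly below wild type, was found for 6.08% of all tested genes with the IRAK2 knockout. With the double knockout it was found for 17.5%. Over the stimulated times the double knockout differed from wild type by -1.24 (SE 0.22, interval -1.75 to -0.74, adjusted p = 0.00251). The IRAK2 knockout differed by -0.67 (SE 0.22, interval -1.17 to -0.17), which passed only with these 2 genotypes alone in the fit (adjusted p = 0.240, against 0.0337). Osm did not pass the test for a response to MALP-2 (difference -0.08, adjusted p = 0.676).

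Markers of neutrophils, a cell type that can itself express Osm, were partly lower in the double knockout too. Their summed level was 10.5 to 11.1 in the IRAK2 knockout, 9.76 to 9.82 on the stimulated double-knockout arrays and 10.7 to 11.4 in wild type. Of 9 markers read, Cxcr2, Elane, Mpo and Ngp were under the floor on all 11 arrays, and S100a8, Camp and Csf3r were called lower in the double knockout than in wild type. In that comparison 17.3% of all tested genes were called lower and 23.7% higher. The other tested markers, S100a9 (-0.11, adjusted p = 0.546) and Mmp9 (-0.28, adjusted p = 0.156), were not called, and S100a9 lay near the floor. S100a8, Camp and Mmp9 were called higher in the response to MALP-2 shared by wild type and IRAK2 knockout (18.9% of all genes), so they also follow the stimulus. Limma called 0 of the 5 tested in the IRAK2 knockout, with 2 at an unadjusted p under 0.05 (13.6% of all genes). In bulk RNA fewer cells of a type and less RNA per cell cannot be told apart, and the part of neutrophils in the Osm values was not tested. Markers of mesothelial and stromal cells, which can be sources of Il6 and Lif, had summed levels of 11.4 to 11.6 in the IRAK2 knockout, 11.5 to 11.7 in the stimulated double knockout and 11.4 to 11.6 in wild type. In that list 7 of 10 were at or above the floor on average, Msln and Krt19 being under it throughout. Pdgfrb (difference -1.48, adjusted p = 9.55e-04) and Dcn (-0.63, adjusted p = 0.0429) were called lower in the double knockout than in wild type. In that comparison 17.3% of all tested genes were called lower and 23.7% higher. Pdgfrb also follows the stimulus: it was called higher in the shared response to MALP-2 (18.9% of all genes), reading 3.81 at 0 h and 5.85 at 2 h in wild type. Limma called 0 of the 7 tested in the IRAK2 knockout, with 2 at an unadjusted p under 0.05 (13.6% of all genes). The part of these cells in the Il6 and Lif values was not tested.

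Il10, which encodes the anti-inflammatory cytokine interleukin 10, was under the floor on all 11 arrays. The IRAK2 knockout read 3.47, 3.71, 3.37 and 3.45, the stimulated double knockout 3.55, 3.82 and 3.46, and wild type 3.52, 3.83, 3.70 and 3.59. The highest value, in wild type at 2 h, rounds to the floor. No induction by MALP-2 was detectable with this probeset, which does not show that the gene was silent.

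Among the receptor chains, Il6ra had a lower level after MALP-2 in wild-type and IRAK2-knockout cells and a still lower one in the double knockout. The product of Il6ra is the chain that binds IL-6 itself. The IRAK2 knockout read 7.77 at 0 h, then 6.48, 6.22 and 6.26. The stimulated double knockout read 5.62, 5.12 and 6.10, and the library labelled double knockout at 0 h read 6.88. Wild type read 8.12, then 6.27, 6.61 and 6.30. Each stimulated double-knockout value was below all stimulated values of the other genotypes, with the smallest distance at 8 h. Of all tested genes, 17.5% lay wholly below wild type in this way and 16.9% wholly below the IRAK2 knockout.

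Over the stimulated times Il6ra in the double knockout differed from wild type by -0.78 (SE 0.22, interval -1.28 to -0.28, adjusted p = 0.0209). It differed from the IRAK2 knockout by -0.71 (SE 0.22, adjusted p = 0.0326). The first difference was -0.84 (adjusted p = 0.0695) without the 2 h arrays and -0.42 (adjusted p = 0.191) without the 4 h arrays. The second was -0.64 (adjusted p = 0.152) and -0.51 (adjusted p = 0.139). Without the 8 h arrays they were -1.07 (adjusted p = 0.00888) and -0.98 (adjusted p = 0.0124), so both calls needed the 2 h and the 4 h arrays. The IRAK2 knockout did not differ detectably from wild type (-0.07, interval -0.57 to 0.43, adjusted p = 0.919). A second Il6ra probeset, 1422270_a_at, lay near the floor on all 11 arrays, between 3.60 and 4.01. It was called neither for the response to MALP-2 (0.0126, adjusted p = 0.931) nor between the double knockout and wild type (-0.11, adjusted p = 0.520).

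Il6st, which encodes gp130, was read by 2 probesets above the floor that gave unlike results. On the main probeset, 1452843_at, the IRAK2 knockout read 8.03, 7.76, 7.30 and 7.25, the stimulated double knockout 7.76, 7.47 and 7.74, and wild type 7.95, 7.85, 7.36 and 7.45. The groups overlapped, and the double knockout differed from wild type by 0.11 (interval -0.18 to 0.39, adjusted p = 0.525). On the other probeset, 1437303_at, the IRAK2 knockout read 6.91, 5.92, 5.77 and 5.87, the stimulated double knockout 6.53, 6.52 and 6.74, and wild type 7.10, 5.91, 5.84 and 5.94. There all 3 stimulated double-knockout values lay above all other stimulated values. Among all tested genes, read on their main probesets, 23.0% lay wholly above wild type in this way and 21.7% wholly above the IRAK2 knockout. In a fit of every probeset on its own this probeset was higher in the double knockout than in wild type by 0.70 (adjusted p = 0.00146) and than in the IRAK2 knockout by 0.74 (adjusted p = 0.00133). The remaining Il6st probesets, 1421239_at and 1460295_s_at, were under the floor on all 11 arrays.

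Il10ra and Il10rb, the 2 chains of the IL-10 receptor, were not called between genotypes on their main probesets. Il10ra read 7.30, 7.58, 7.27 and 7.03 in the IRAK2 knockout, 7.77, 7.56 and 7.15 in the stimulated double knockout, and 7.21, 7.42, 7.45 and 7.34 in wild type. Il10rb read 8.04, 8.05, 8.11 and 7.82 in the IRAK2 knockout, 8.08, 7.64 and 7.65 in the stimulated double knockout, and 7.87, 8.20, 7.98 and 7.81 in wild type. For Il10ra the difference from wild type was -0.11 (interval -0.41 to 0.19) in the IRAK2 knockout and 0.09 (interval -0.21 to 0.39) in the double knockout. For Il10rb it was -0.00 (interval -0.28 to 0.27) and -0.21 (interval -0.49 to 0.07). A dimmer Il10rb probeset, 1429959_at, read 4.56, 4.32 and 4.11 in the stimulated IRAK2 knockout, 4.31, 4.08 and 4.52 in the stimulated double knockout and 5.41, 4.89 and 4.61 in stimulated wild type. It was lower in the double knockout than in wild type (difference -0.66, adjusted p = 0.0180). The IRAK2 knockout differed from wild type by a similar -0.64, which did not pass (adjusted p = 0.182). Between the knockouts the difference was -0.02 (adjusted p = 0.937).

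Stat3, the transcription factor that these receptors activate, differed between probesets as well. On the main probeset, 1460700_at, the IRAK2 knockout read 7.45, 7.29, 7.16 and 7.05, the stimulated double knockout 7.25, 7.10 and 7.69, and wild type 7.47, 7.38, 7.50 and 7.41. Stimulated IRAK2-knockout values lay below all wild-type values, as did those of 6.08% of all tested genes over the stimulated times. The difference of -0.26 (interval -0.62 to 0.10) did not pass (adjusted p = 0.503). The double knockout differed from wild type by -0.08 (interval -0.44 to 0.28, adjusted p = 0.703).

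On probeset 1459961_a_at Stat3 read 4.98, 5.10, 4.89 and 4.90 in the IRAK2 knockout, 4.26, 4.54 and 5.12 in the stimulated double knockout, and 5.94, 6.15, 5.62 and 5.60 in wild type. Here both knockouts were below wild type at every time. The double knockout differed from wild type by -1.15 (adjusted p = 0.00420) and the IRAK2 knockout by -0.83 (adjusted p = 0.170). On 1426587_a_at the double knockout differed from wild type by -0.55 (adjusted p = 0.0373), and the IRAK2 knockout by -0.13 (adjusted p = 0.794). Which transcripts or stretches of Stat3 and Il6st these probesets read was not analysed here, and whether Stat3 is called in the double knockout depends on the probeset.

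**Figure D3:**
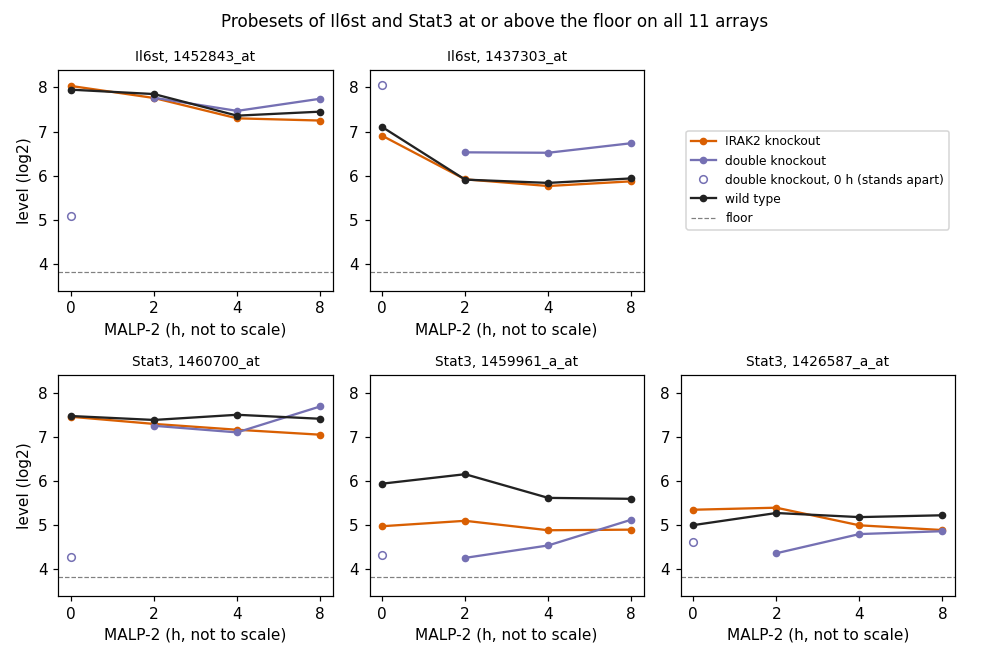
Level (log2, y axis) of the Il6st and Stat3 probesets at or above the floor on all 11 arrays, against time of MALP-2 (x axis, not to scale), 1 array per point. Probeset 1437303_at of Il6st is at 6.52 to 6.74 in the stimulated double knockout and 5.84 to 5.94 in stimulated wild type, whereas the lines of 1452843_at run together.

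The response to MALP-2 itself was tested on the 8 arrays of wild type and the IRAK2 knockout, as the mean of 2, 4 and 8 h minus 0 h with genotype as a factor. Il6 and Lif rose (18.9% of 10799 genes were called higher), Il6ra and Il6st fell (28.2% were called lower, 47% in either direction), and Osm, Il10ra, Il10rb and Stat3 did not pass. Il6 rose by 2.84 (SE 0.86, adjusted p = 0.0271), a mean over 2 genotypes that differed widely, and did not pass without the 4 h arrays (2.77, adjusted p = 0.0734). Lif rose by 2.10 (SE 0.32, adjusted p = 0.00106). Il6ra fell by 1.59 (SE 0.13, adjusted p = 5.05e-05) and the main probeset of Il6st fell by 0.50 (SE 0.09, adjusted p = 0.00280), its second probeset by 1.13 (adjusted p = 2.86e-05). Stat3 differed from 0 h by -0.16 (interval -0.40 to 0.07).

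Within 1 genotype, with 1 array per time and no test, Il6, Lif and Il6ra were at least 2-fold from 0 h at all 3 times in wild type. There 13.1%, 12.3% and 10.7% of all measured genes were that far apart at 2, 4 and 8 h. In the IRAK2 knockout the same genes were that far apart at 2 h (10% of genes), Il6 and Il6ra at 4 h (9.26%), and Il6ra alone at 8 h (6.17%). Between genotypes at 1 time, 0 members were at least 2-fold lower in the IRAK2 knockout than in wild type at 2 h (0.286% of genes), Il6 and Lif at 4 h (0.528%), and Il6, Lif and Osm at 8 h (1.21%). In the double knockout Il6 and Lif were that far below wild type at 2 h (4.5% of genes), Il6, Lif, Osm and Il6ra at 4 h (6.14%), and Il6 and Lif at 8 h (4.89%).

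**Figure D4:**
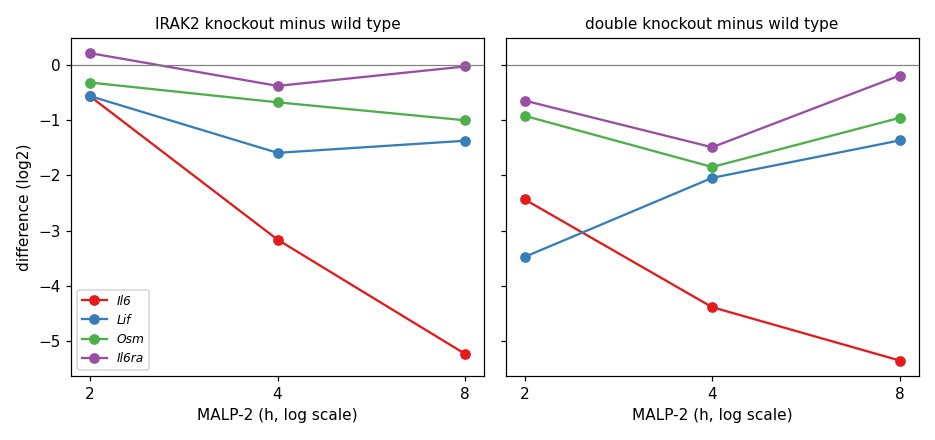
Difference from wild type at the same time (log2, y axis) for Il6, Lif, Osm and Il6ra at 2, 4 and 8 h of MALP-2 (x axis, log scale), the IRAK2 knockout on the left and the double knockout on the right, 1 pair of arrays per point. Il6 moves from -0.57 at 2 h to -5.23 at 8 h in the IRAK2 knockout and from -2.43 to -5.34 in the double knockout, while Lif in the double knockout moves from -3.47 to -1.37.

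Genes described as targets or feedback regulators of STAT3 were mostly lower in the double knockout and not called in the IRAK2 knockout. Of 19 tested in a list of 20, the double knockout had 14 called lower and 4 called higher than wild type, where 17.3% of all tested genes were called lower and 23.7% higher. In this comparison the list's median difference was -1.09, beside 0.07 over all tested genes. Many of these genes are also direct targets of NF-kB or AP-1, so the list does not read STAT3 alone. Socs3, whose product blocks gp130 signalling, read 7.01, 11.01, 10.49 and 9.47 in the IRAK2 knockout, 9.13, 7.74 and 6.55 in the stimulated double knockout, and 7.24, 11.12, 10.97 and 10.84 in wild type. It was lower in the double knockout than in wild type (difference -3.17, SE 0.34, adjusted p = 2.60e-04).

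Timp1, a metalloproteinase inhibitor, differed by -2.56, Cebpd, a C/EBP transcription factor, by -2.12, and Cish, a cytokine signalling inhibitor, by -1.86 between the double knockout and wild type. Saa3, an acute-phase protein, differed by -1.76, Myc by -1.47, the IL-4 receptor chain Il4ra by -1.19 and the kinase gene Pim1 by -1.14. Nfil3, Il1rn (the IL-1 receptor antagonist), Cebpb, Junb, Sbno2 and Tnfrsf1b, all called lower too, differed by -1.13 to -0.54. The cyclin gene Ccnd1 was higher by 1.82, the repressor genes Etv3 and Bcl6 by 1.04 and 0.69, and the survival gene Mcl1 by 0.35. Bcl3 was not called.

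In the IRAK2 knockout limma called 0 of the 19 STAT3 list genes, with 4 at an unadjusted p under 0.05 (13.6% of all genes), and the list's median difference from wild type was -0.21. Cish (-1.14, adjusted p = 0.123) and Socs3 (-0.65, adjusted p = 0.442) had the widest differences. Socs3 in the IRAK2 knockout was 9.47 at 8 h, against 10.84 in wild type, while at 2 h the values were 11.01 and 11.12. Between the double knockout and the IRAK2 knockout 12 of 19 were called lower and 3 higher (16.7% and 22.1% of all genes). In the shared response of wild type and IRAK2 knockout to MALP-2, 13 of the 19 rose (18.9% of all genes) and Ccnd1 and Nfil3 fell (28.2%), Socs3 rising by 3.52 (adjusted p = 1.55e-05).

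**Figure D5:**
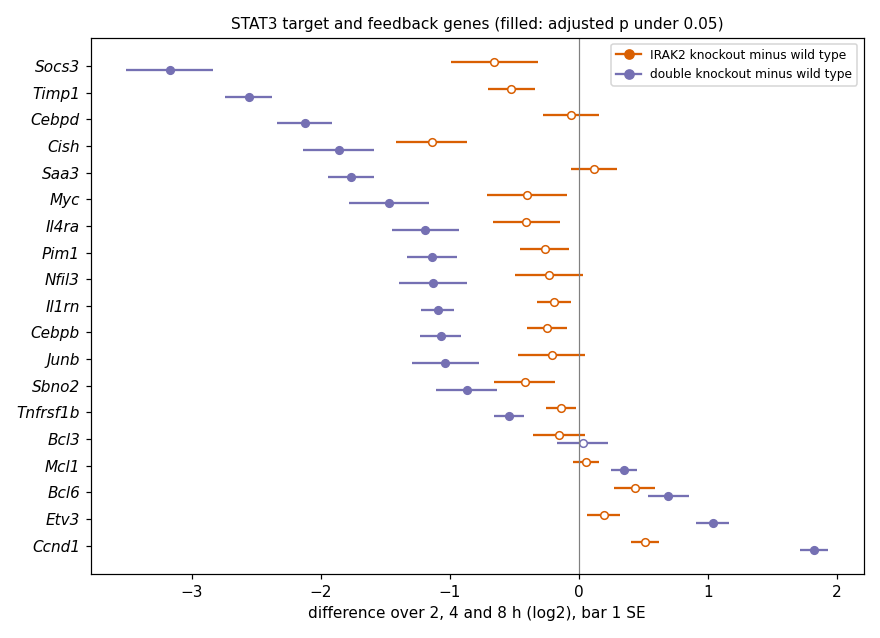
Difference from wild type over 2, 4 and 8 h (log2, x axis) for the 19 tested genes of the STAT3 target and feedback list (y axis), with bars of 1 SE and filled points where the adjusted p was under 0.05. The double knockout runs between -3.17 for Socs3 and 1.82 for Ccnd1, and no point of the IRAK2 knockout is filled.

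Regulators of Il6 transcription and messenger stability were read for 13 of 14 listed genes. In the double knockout 5 were lower than wild type and 1 was higher, a total share near the 41.1% of all tested genes called (17.3% lower and 23.7% higher). Nfkbiz encodes an NF-kB cofactor needed for Il6 transcription (-2.52), Rel and Rela encode NF-kB subunits (-1.71 and -0.52), Zc3h12a encodes Regnase-1, which degrades Il6 messenger RNA (-2.81), and Elavl1 encodes the RNA-binding protein HuR (-1.13). Atf3, a transcriptional repressor of Il6, was higher by 0.82. In the IRAK2 knockout limma called 0 of 13, with 3 at an unadjusted p under 0.05 (13.6% of all genes), the widest differences being those of Zc3h12a (-0.92, adjusted p = 0.209) and Nfkbiz (-0.90, adjusted p = 0.167).

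Nfkbiz read 7.22, 11.69, 10.19 and 9.73 in the IRAK2 knockout, 9.99, 8.93 and 7.84 in the stimulated double knockout, and 7.38, 11.85, 11.39 and 11.08 in wild type. Unlike Il6, its level in the double knockout at 2 h was well above that of unstimulated wild-type cells. In the shared response of wild type and IRAK2 knockout, Nfkbiz rose by 3.69, Zc3h12a by 2.96, Rel by 1.96, Irf1 by 1.51, Rela by 1.21 and Elavl1 by 0.62. Zfp36l1 and Zfp36l2, members of the family of AU-rich-element decay factors, fell by 1.69 and 0.67, and Atf3 fell by 0.96. Thus 6 of the 13 tested were called higher, where 18.9% of all genes were. The 3 called lower are a share near the 28.2% of all genes.

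Further genes of the pathway were read in short lists. Of other gp130-family cytokines 3 of 7 were tested, and Ebi3, a subunit of IL-27, was lower in the double knockout than in wild type (difference -1.90) while Clcf1 and Ctf1 were not called. Ebi3 read 8.38, 8.77 and 8.86 in the stimulated IRAK2 knockout, 6.79, 7.07 and 7.00 in the stimulated double knockout and 8.17, 8.86 and 9.54 in stimulated wild type. Il27ra, the IL-27 receptor chain that pairs with gp130, was the 1 pathway gene called in both comparisons with wild type, and in opposite directions. It read 4.93, 5.52 and 5.71 in the stimulated IRAK2 knockout (difference -0.65, adjusted p = 0.0435), 6.46, 7.21 and 7.31 in the stimulated double knockout (difference 0.96, adjusted p = 3.33e-04), and 5.64, 6.10 and 6.36 in stimulated wild type. The receptor chains Lifr and Osmr were not called in either. Of all tested genes, 17.3% were called lower and 23.7% higher in the double knockout than in wild type. In the IRAK2 knockout 0.35% were called lower and 0.415% higher.

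Of 9 JAK-STAT kinases and phosphatases, the double knockout had Jak2 (-1.24), the phosphatase genes Ptpn6, or SHP-1 (-1.21), and Ptpn1 (-0.46) lower than wild type, and Ptprc, or CD45, higher (0.47). That is 4 of 9 genes called, a share near the 41.1% of all tested genes. Jak2 read 11.60, 11.33 and 10.97 in the stimulated IRAK2 knockout, 10.95, 10.61 and 9.92 in the stimulated double knockout and 11.85, 11.72 and 11.62 in stimulated wild type, where it had been 9.37 at 0 h. Of 5 other STAT genes tested, Stat4 was lower (-0.48) and Stat6 higher (0.38), again a share near that of all genes. Among the proteases that release the IL-6 receptor from the cell surface, Adam10 was higher (0.86), Rhbdf2, a cofactor of ADAM17, was lower (-0.68), and Adam17 was not called. Il20rb, the 1 tested gene of the IL-10-family list, was lower by 0.57 on the log2 scale (difference -0.57). In the IRAK2 knockout limma called 0 of the 9 kinase and phosphatase genes, 0 of the 5 STAT genes and 0 of the 3 protease genes, with 2, 0 and 1 at an unadjusted p under 0.05 (13.6% of all genes). Cntf, Il27, Il11ra1, Il19, Il22 and Nfkb1 had no probeset assigned to that gene alone and were not analysed here.

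Over the 11 arrays other than the library labelled double knockout at 0 h, the genes whose pattern was most like each cytokine were ranked by Pearson correlation among 5121 genes whose mean reached the floor and whose values spanned at least 1. The arrays share genotype and time, so these values describe the course and carry no test. Closest to Il6 were Gja1 (r = 0.946), Il12a (0.945), U90926 (0.932), Fst (0.926) and Ptx3 (0.920). Il12a, a subunit of IL-12, read 4.16, 6.30, 5.94 and 5.05 in the IRAK2 knockout, 3.69, 3.55 and 3.98 in the stimulated double knockout and 3.70, 6.63, 7.11 and 8.28 in wild type, so that it climbed through 8 h in wild type and was highest at 2 h in the IRAK2 knockout. Closest to Lif were Slc22a15 (0.981), Trim36 (0.979), Tpbg (0.969), Nr4a3 (0.966) and Heg1 (0.966).

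Nr4a3, an immediate-early nuclear receptor gene, read 8.09, 5.23 and 4.53 in the stimulated IRAK2 knockout, 5.34, 3.99 and 3.86 in the stimulated double knockout and 8.73, 6.58 and 5.35 in stimulated wild type, highest at 2 h in each genotype, whereas Lif had no 2 h peak in the double knockout. Closest to Osm were 6820431F20Rik (0.918), Csf3r (0.897), Cdc26 (0.889), Tmem87a (0.887) and Lrrc41 (0.887), of which Csf3r is one of the neutrophil markers above. The values nearest to Il10 were lower (Rnf24 0.767, Tex12 0.756, Mapk8 0.756, Alkbh1 0.750, Bcor 0.748), and Il10 lay under the floor throughout. Between Il6 and Lif r was 0.692, between Il6 and Osm 0.634, and between Lif and Osm 0.537.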

How the data were processed

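The authors deposited log2 values of 45101 probesets on 12 arrays, made with RMA, per the submitters' processing notes. RMA corrects background, equalises the distributions of the arrays and summarises the probes of a probeset, so a shift common to all genes would not be seen. No version of it is given there. RNA was extracted with Trizol and labelled with the NuGEN Ovation system, per the labels' protocols. With 1 array per genotype and time, the number of arrays limits the precision.

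Of the probesets, 34958 carry 1 gene symbol, 932 several and 9211 none, and only the first were used. Each of 18193 genes was read from the probeset with the highest mean over 11 arrays. Genes whose mean reached the floor of 3.83 were tested with limma 3.58.1 in R 4.3.3, with Benjamini-Hochberg adjustment over all genes and a threshold of 0.05. Genotype differences over 2, 4 and 8 h used 9 arrays (4 residual degrees of freedom), their slopes on log2 time the same 9, and the response to MALP-2 8 arrays. The fits were run on simulated data with planted differences and noise of equal size in all genes. This checks the estimated differences and not how far the calls on these arrays hold. Alternatives covered the filter, the probesets, the arrays and genotypes in the fit, limma-trend, the slope's scale and single times left out. Sequences are RefSeq's.

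The members and gene lists were chosen with earlier results of these data known. The genes named are the 9 members, list genes that were called, otherwise the 2 list genes with the widest difference, and the 5 genes most correlated with each cytokine.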

Additional observations from a re-analysis of the deposited data

Results flagged for a closer look

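The Il6 difference from wild type changed with time in both knockouts, by -2.33 log2 per doubling of time in the IRAK2 knockout and by -1.46 in the double knockout, each by a test of the change itself. At 2, 4 and 8 h the IRAK2 knockout lay at -0.57, -3.16 and -5.23 from wild type. The double knockout lay at -2.43, -4.38 and -5.34. The IRAK2 knockout was under the floor at 8 h and the double knockout near or under it at all 3 times, so the slope of the double knockout mainly reflects the wild-type values. This limits how wide a later difference can be read.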

How the results depend on the processing

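No paired analysis was possible because the labels give 1 array per genotype and time and no replicate numbers. The slope fit could not be run with a time left out, as no residual degrees of freedom would remain. Under the alternatives 785 differences of single members counted as unchanged, 9 gained a call, 11 lost one and 15 turned. For tested differences, unchanged means the same direction and side of the threshold. The 785 also include untested differences of 2 arrays, which have no threshold to keep. Those counted as unchanged when they shifted by less than the residual standard deviation, so the 785 overstate how many calls were kept. The count of members called between the IRAK2 knockout and wild type was 0, and became 1 without the 2 h arrays and 3 with only these 2 genotypes. Between the double knockout and wild type it was 4, and became 7 with every probeset on its own and 2 with all 12 arrays, where Il6 (-2.94, adjusted p = 0.0751) and Lif (-1.52, adjusted p = 0.158) were lost. Between the double and the IRAK2 knockout it was 1, and became 2 with every probeset, 2 with 11 arrays, 2 with only these genotypes, 3 without the 8 h arrays, and 0 with all 12 arrays or without the 2 h or 4 h arrays. The slope count was 1 in each comparison. It became 0 on hours for both, and for the double knockout 0 with every probeset (Il6 adjusted p = 0.0565) and 2 with only 2 genotypes. At 1.5-fold, 4 members lay apart between the double knockout and wild type at 2 h, and 4 and 3 between 4 or 8 h and 0 h in the IRAK2 knockout. Directions turned for members that had not been called. For the IRAK2 knockout minus wild type, Il6ra was 0.0867 without the 4 h arrays, and Il10rb 0.0393 with 11 arrays, 0.0393 with 12 and 0.0659 without the 2 h arrays. For the double knockout minus wild type, Il6st was -0.63 and Il10ra -0.75 with 12 arrays, Il10ra -0.0394 without 2 h, Stat3 0.0733 without 4 h, and the Osm slope 0.0265 on hours. For the double minus the IRAK2 knockout, Il6st was -0.57, Il10ra -0.69 and Stat3 -0.66 with 12 arrays, and Stat3 -0.0512 without 8 h. The response of Osm was 0.11 without 8 h and that of Il10rb -0.0263 without 2 h. Over all genes, calls between the IRAK2 knockout and wild type (38 lower, 45 higher) ranged between 6 and 258 lower and 0 and 295 higher. Against wild type the double knockout (1882 and 2575) had 733 and 428 with 12 arrays, 877 and 1234 without 4 h, and 3972 lower with every probeset. Against the IRAK2 knockout (1816 and 2396) it had 648 and 356, 694 and 878, and 3512 lower. Slope calls of the IRAK2 knockout (1 and 0) were 27 and 4 with only 2 genotypes. Those of the double knockout (12 and 3) were 23 and 18 with no filter, 72 and 60 with limma-trend, and 26 and 16 with only 2 genotypes. Response calls higher (2037) were 3722 with every probeset. The cause of these shifts was not tested, and 1 array per group limits every value.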
